A study of Mus musculus with 14 samples.

Results

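The genes examined here encode subunits of the Polycomb complexes in mouse embryonic stem cells. They are 10 of the 21887 protein-coding genes in the RefSeq gene table for GRCm38.p6, the assembly of the mm10 build, and were taken by name: Eed, Suz12, Ezh2, Ezh1, Jarid2, Mtf2, Ring1, Rnf2, Pcgf6 and Bmi1. Every listed ChIP-seq region in each gene and in 10 kb on either side of it was collected. The genes are 3889 to 190870 bp long, with a median of 33471 bp against 17169 bp over all protein-coding genes, so they offer more room for regions than a typical gene.

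The cells were E14, a mouse embryonic stem cell line, grown on gelatin with LIF and the inhibitors PD0325901 and CHIR99021. Doxorubicin, which traps topoisomerase II on DNA and breaks it, was given at 1 µM for 6 h, and control cells received DMSO (vehicle). All cells then had 6 h without drug and were harvested at 12 h. H3K27ac, found at active promoters and enhancers, and H3K9me3, found in silent heterochromatin, were each profiled after doxorubicin and after vehicle, p53 was pulled down through an HA tag, and an HA pull-down from cells without the tag and an input of doxorubicin-treated cells served as controls. The labels do not state the treatment of the HA libraries or how the tagged protein was expressed, and the 2 p53 libraries share a replicate number. Each of the 7 groups holds 2 libraries that the authors pooled into 1 peak list, so no value below has a replicate behind it and no test was possible.

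The lists rest on 17036528 fragments for H3K27ac after doxorubicin and 20647895 after vehicle, 14402634 and 15992125 for H3K9me3, 45238471 for p53, 49588950 for the untagged control and 16583331 for the input. A level here is the pileup, the number of fragments over a summit, per 1000000 fragments of its list (FPM). Intervals are 95% and cover counting error only, and since a summit is the highest point of its region they are too narrow. A listed summit had at least 8 fragments after doxorubicin and 9 after vehicle for H3K27ac, and at least 7 and 8 for H3K9me3. A gene or position that is not listed may still carry signal below the calling threshold. All 8 embryonic stem cell markers looked up, Pou5f1 and Nanog among them, had H3K27ac in both treatments, against 3 of 8 fibroblast markers after doxorubicin and 2 of 8 after vehicle.

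Polycomb proteins keep developmental genes silent and work in a pair of complexes. In Polycomb repressive complex 2, EZH2 or its relative EZH1 methylates histone H3 at lysine 27, the residue that carries H3K27ac when acetylated instead, while SUZ12 holds the complex together and EED binds the finished mark and stimulates the enzyme. JARID2 and MTF2 are accessory subunits that bring this complex to its targets. In Polycomb repressive complex 1, RING1 and RNF2 (RING1B) are the ubiquitin ligases for histone H2A, and BMI1 (PCGF4) and PCGF6 are alternative partners that define different forms of the complex. In embryonic stem cells these complexes hold lineage genes in a silent but inducible state.

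The promoters of 4 of the genes, Eed, Suz12, Ezh2 and Mtf2, are shown because their H3K27ac after the 2 treatments is the comparison the results turn on. Each sequence runs 5′ to 3′ on the strand of the gene and spans 250 bases before and 50 after the annotated start, from RefSeq (GRCm38.p6). They lie at chr7:89980927-89981226 (minus strand), chr11:79992856-79993155 (plus), chr6:47594981-47595280 (minus) and chr5:108065424-108065723 (plus, the first of 2 annotated Mtf2 starts). Capitals mark a match to TTCCCGC, a core of the motif of E2F, the family of cell cycle transcription factors.
Eed: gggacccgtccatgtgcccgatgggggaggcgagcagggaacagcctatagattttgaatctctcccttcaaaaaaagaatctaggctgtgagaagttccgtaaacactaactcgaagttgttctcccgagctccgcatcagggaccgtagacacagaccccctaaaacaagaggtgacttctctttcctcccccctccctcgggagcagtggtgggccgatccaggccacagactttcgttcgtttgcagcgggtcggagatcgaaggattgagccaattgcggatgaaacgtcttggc
Suz12: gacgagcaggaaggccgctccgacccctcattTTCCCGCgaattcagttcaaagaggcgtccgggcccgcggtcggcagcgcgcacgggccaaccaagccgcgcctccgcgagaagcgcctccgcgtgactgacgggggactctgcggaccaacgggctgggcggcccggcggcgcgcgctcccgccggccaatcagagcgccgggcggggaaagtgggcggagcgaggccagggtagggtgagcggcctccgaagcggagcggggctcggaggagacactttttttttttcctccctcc
Ezh2: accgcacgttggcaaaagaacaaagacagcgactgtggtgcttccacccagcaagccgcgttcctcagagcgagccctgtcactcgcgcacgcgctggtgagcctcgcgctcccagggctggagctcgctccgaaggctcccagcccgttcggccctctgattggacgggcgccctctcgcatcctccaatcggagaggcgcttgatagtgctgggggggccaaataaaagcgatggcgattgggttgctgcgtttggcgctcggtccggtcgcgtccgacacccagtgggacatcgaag
Mtf2: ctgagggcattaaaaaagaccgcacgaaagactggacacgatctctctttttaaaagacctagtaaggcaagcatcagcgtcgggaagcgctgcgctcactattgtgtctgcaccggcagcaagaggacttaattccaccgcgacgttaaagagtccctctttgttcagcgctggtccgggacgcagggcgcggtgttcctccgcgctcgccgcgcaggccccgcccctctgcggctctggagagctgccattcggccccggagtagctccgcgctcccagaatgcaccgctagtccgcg
Suz12 has 1 match and the other promoters shown have none. On both strands, the motif was in 1 of the 12 promoters of the 10 genes (Jarid2 and Mtf2 have 2 starts each) and in 5.95% of all 21263 promoters of the table. TGCGCA, the half-site of the nuclear respiratory factor NRF1, was in 2 of the 12, those of Ezh1 and Pcgf6, and in 9.74% of all. The promoters had more CG dinucleotides than the median of 13 over all promoters, whose quartiles were 4 and 24. There were 17 in Eed, 41 in Suz12, 31 in Ezh2 and 30 at the first Mtf2 start. The median over the 12 was 23.5, within those quartiles, as was the value of Eed. The second Mtf2 start, inside the gene, is the exception with 2.

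p53 was listed at 3 of the 10 genes, where 25.0% of all protein-coding genes had a p53 region in the same window. The level differed widely among the 3. Eed had a pileup of 1477 p53 fragments, or 32.6 FPM (95% interval 31.0 to 34.4), with a deposited fold enrichment of 173 over the local input background. Ring1 had 40 fragments, or 0.884 FPM, and Mtf2 had 35, or 0.774 FPM. None of the 3 regions overlapped a region of the untagged or the input list. Suz12, Ezh2, Ezh1, Jarid2, Rnf2, Pcgf6 and Bmi1 had no p53 region.

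The Eed region lies at chr7:89950978-89951881 (mm10) on the far side of the gene from its start: its summit is 3227 bp past the 3′ end and 29549 bp from the start. It ranked 87 of 11282 p53 regions by pileup, and 48 among the 10857 that overlapped neither control list. It was 21.1 times the median of the p53 list, which was 1.55 FPM. The strongest region at Cdkn1a, the p21 cell cycle inhibitor and a standard p53 target, had 15.5 FPM, and that at Mdm2, the ubiquitin ligase that degrades p53, had 8.89, so the Eed level was 2.11 and 3.67 times as high. The region lies between Eed and the next gene on the same strand, Hikeshi, which encodes a nuclear import carrier for HSP70: the start of Hikeshi is 10204 bp beyond the summit, and the window of 10 kb around Hikeshi reaches the same region. Of the other protein-coding genes, those with a p53 level close to that of Eed included Atp9a with 33.2 FPM and Sox5 with 31.9.

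**Figure D1:**
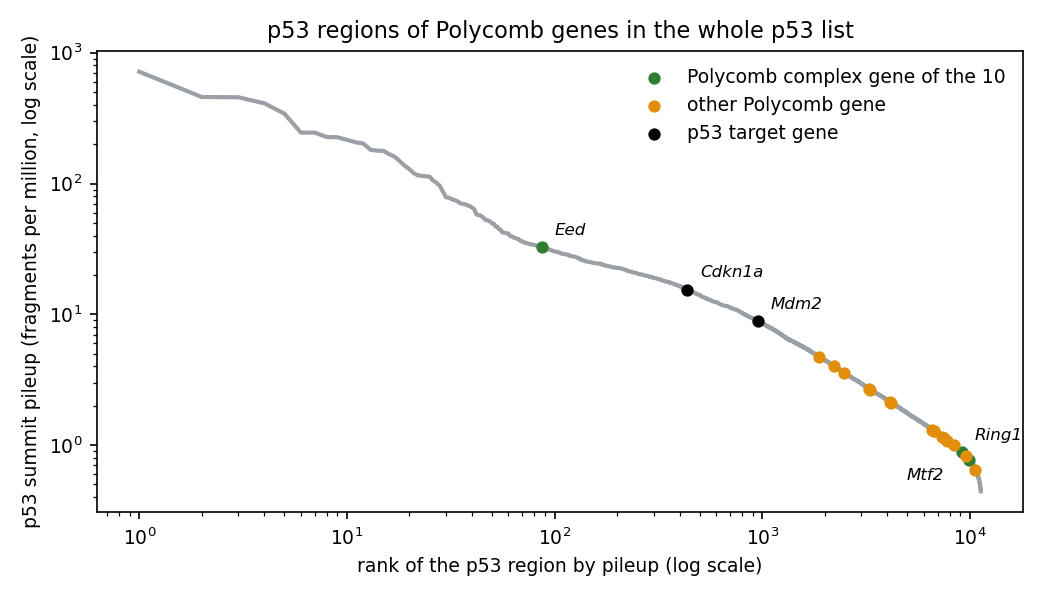
p53 summit pileup (FPM, log scale) against rank in the p53 list (log scale). The grey line is all 11282 regions and points are the strongest region of each named gene, with Eed at rank 87 above Cdkn1a and Mdm2, and Mtf2 and Ring1 near the bottom of the list.

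At Ring1 the summit was 7368 bp past the 3′ end, at rank 9156. At Mtf2 it was inside the gene, 32214 bp from the first start, at rank 9912. Both had fewer fragments than the lower quartile of the list, 0.995 FPM, with fold enrichments of 3.28 and 4.68.

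The p53 site past Eed carried both histone marks in both treatments. H3K27ac there was 4.81 FPM after doxorubicin and 3.44 after vehicle, a ratio of 1.40 (95% interval 1.01 to 1.95). Over all 4835 H3K27ac loci at p53 regions that were listed in both treatments, the median ratio was 1.98, with quartiles of 1.48 and 2.55, so the ratio at Eed lay below the lower quartile. H3K9me3 at the same place was 1.74 FPM after doxorubicin and 1.06 after vehicle, with 25 and 17 fragments and a ratio of 1.63 whose interval included 1 (0.847 to 3.22). Over the 2165 H3K9me3 loci at p53 regions listed in both treatments, the median ratio was 1.40. The quartiles were 1.18 and 1.67, so the H3K9me3 ratio at Eed lay within them. At Atp9a, with a p53 level like that of Eed, the H3K27ac ratio at the site was 2.76, and at Sox5 H3K27ac was listed after doxorubicin only, at 1.35 FPM. The strongest p53 regions of the standard targets had smaller ratios. At Cdkn1a H3K27ac was 6.75 after doxorubicin and 6.05 after vehicle (1.115), and at Mdm2 10.3 and 6.78 (1.515). A ratio as low as that at Eed was thus not particular to it.

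At the p53 site within Mtf2, H3K27ac was 6.52 FPM after doxorubicin and 3.05 after vehicle, a ratio of 2.14 (1.55 to 2.96) near the median of p53 loci. At the Ring1 site H3K27ac was listed after doxorubicin only, at 0.646 FPM, within 3 fragments of the lowest listed level. Of the 2 sites with a ratio, that at Eed had the higher p53 level and the lower H3K27ac ratio.

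**Figure D2:**
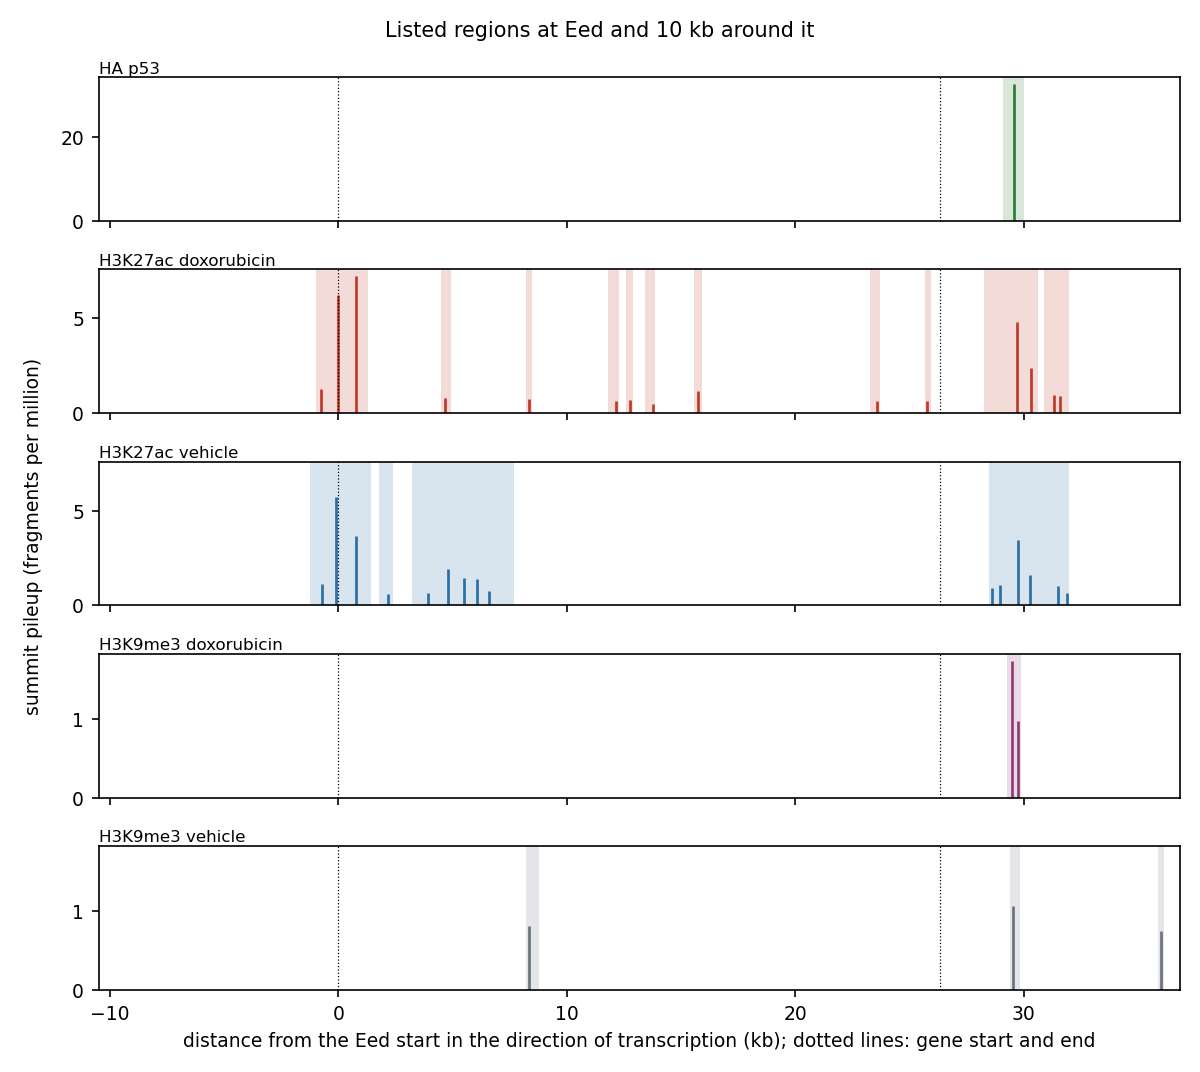
Listed regions at Eed and 10 kb around it, by distance from the gene start in kb, with summit pileup in FPM. Shaded spans are regions and lines their summits; p53, H3K27ac and H3K9me3 coincide past the 3′ end, where p53 reaches 32.6 and H3K27ac 4.81 after doxorubicin and 3.44 after vehicle.

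At the gene starts H3K27ac did not move one way. Of the 10 genes, 7 had H3K27ac within 1 kb of a start in both treatments, 0 after doxorubicin only, 2 after vehicle only and 1, Ezh1, in neither. Over 17492 protein-coding genes with an annotated start, 45.3% had it in both, 6.81% after doxorubicin only and 4.62% after vehicle only. The level was at most 1/1.5 of vehicle at 3 of the 7 (background 12.3%) and at least 1.5 times vehicle at 0 of the 7 (background 15.1%). The median ratio of the 7 was 0.951, and over all 7926 genes with both it was 0.998, with quartiles of 0.783 and 1.29.

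The core subunits of Polycomb repressive complex 2 split. Ezh2, the main methyltransferase, had 2.64 FPM after doxorubicin and 4.65 after vehicle, a ratio of 0.568 (0.390 to 0.818). Suz12, the scaffold, had 2.99 after doxorubicin and 4.89 after vehicle, a ratio of 0.612 (0.428 to 0.865). Eed, the reader subunit, had 7.22 after doxorubicin and 5.71 after vehicle, a ratio of 1.26 (0.973 to 1.64). The intervals of Ezh2 and Suz12 thus lay below 1 and that of Eed included 1. Each value is the highest summit of its treatment, and at Eed and Ezh2 these were different summits. At Eed the 7.22 lay inside the gene and the 5.71 on the start. At Ezh2 the 2.64 lay further upstream than the 4.65. The ratios of 1.26 and 0.568 thus compare the highest levels near the start and describe no single summit.

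Each of these starts has several summits, and their ratios differed. Distances here are from the outer end of the gene record, which at Ezh2 lies upstream of the start in the promoter table. The upstream Suz12 summit gave the ratio of 0.612 above, the summit 121 bp past the start after doxorubicin was 1.59 FPM against 2.86 FPM at its vehicle partner (0.555, 0.338 to 0.889), and the third, 613 bp past the start, was 2.11 after doxorubicin and 1.70 after vehicle (1.25, 0.761 to 2.05). With a window of 500 bp the vehicle summit 509 bp upstream falls outside, and the Suz12 ratio turns to 1.05. At Ezh2 the summit at the outer end of the gene record was 2.35 after doxorubicin and 4.65 after vehicle (0.505, 0.340 to 0.737). Its vehicle summit lies 241 bp upstream of the start in the promoter table. The Ezh2 summit 599 bp inside the gene after doxorubicin was 1.59 and 1.16 (1.36, 0.757 to 2.47). At Eed the summit on the start was 6.22 after doxorubicin and 5.71 after vehicle (1.09, 0.830 to 1.43), while the one 749 bp inside the gene was 7.22 and 3.68 (1.96, 1.46 to 2.65). The remaining paired summits, upstream of Ezh2 and of Eed, had ratios of 0.699 (0.473 to 1.02) and 1.16 (0.616 to 2.18). Of these 9 summits, the one 749 bp inside Eed was the single one with an interval above 1.

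Ezh1, the second methyltransferase, had no H3K27ac within 1 kb of its start in either treatment. Its window held 5 H3K27ac loci. The 2 upstream loci, 5.2 and 7.5 kb before the start, were listed after vehicle only, at 1.02 and 0.920 FPM. The 2 loci past the gene, 2.7 and 4.1 kb beyond its end, were listed after doxorubicin only, at 0.763 and 0.704 FPM. At the 3′ end itself H3K27ac was 1.29 after doxorubicin and 0.533 after vehicle (2.42, 1.13 to 5.54). The 3′ end region also covers the end of Cntnap1, the next gene.

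Of the accessory subunits, Mtf2 was lower at both starts. At the first, H3K27ac was 3.70 after doxorubicin and 6.20 after vehicle (0.597, 0.434 to 0.813), and at the second, inside the gene, it was 2.35 and 4.46 (0.527, 0.354 to 0.772). The listed regions over them were also narrower, 995 bp after doxorubicin against 5070 bp after vehicle at the first start and 856 against 9122 bp at the second. Over all starts with a region in both treatments the median width ratio was 0.943, with quartiles of 0.744 and 1.13. Jarid2 had 5.34 after doxorubicin and 5.62 after vehicle (0.951, 0.715 to 1.26), over a region of 759 bp after doxorubicin and 2272 bp after vehicle. Each width after doxorubicin is that of 1 region only. The 1 vehicle region overlapped 3 doxorubicin regions at the first Mtf2 start, 5 at the second and 2 at Jarid2. The widths thus do not give the full acetylated span after doxorubicin. The deposited region ends depend on where the pileup crosses the calling threshold of each list, so a width is a weaker measure than a level.

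Rnf2, Pcgf6, Ring1 and Bmi1, the genes of Polycomb repressive complex 1 among the 10, had little H3K27ac at their starts. Other genes of this complex varied: Cbx7 had 5.34 FPM after doxorubicin and 4.99 after vehicle, and Pcgf5 was listed in neither. Within 1 kb of either end of its gene record, Cbx7 had 1.94 after doxorubicin and 4.55 after vehicle. Rnf2 had 1.41 FPM after doxorubicin and 1.26 after vehicle (1.12, 0.615 to 2.03), and Pcgf6 had 0.998 and 0.872 (1.15, 0.554 to 2.35). At Ring1 and Bmi1 it was listed after vehicle only, at 0.630 and 0.533 FPM, 13 and 11 fragments, close to the lowest listed level of 9. At Rnf2 the 2 values come from different summits, 792 bp inside the gene after doxorubicin and 234 bp upstream after vehicle, and the upstream summit had no listed counterpart after doxorubicin. Stronger regions near Ring1 and Bmi1 lie over neighbours: 4.11 FPM after doxorubicin and 4.21 after vehicle over the start of Slc39a7, next to that of Rxrb (0.975, 0.702 to 1.35), and 3.99 and 2.57 over the start of Commd3, 4.2 kb upstream of Bmi1 (1.55, 1.07 to 2.27).

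**Figure D3:**
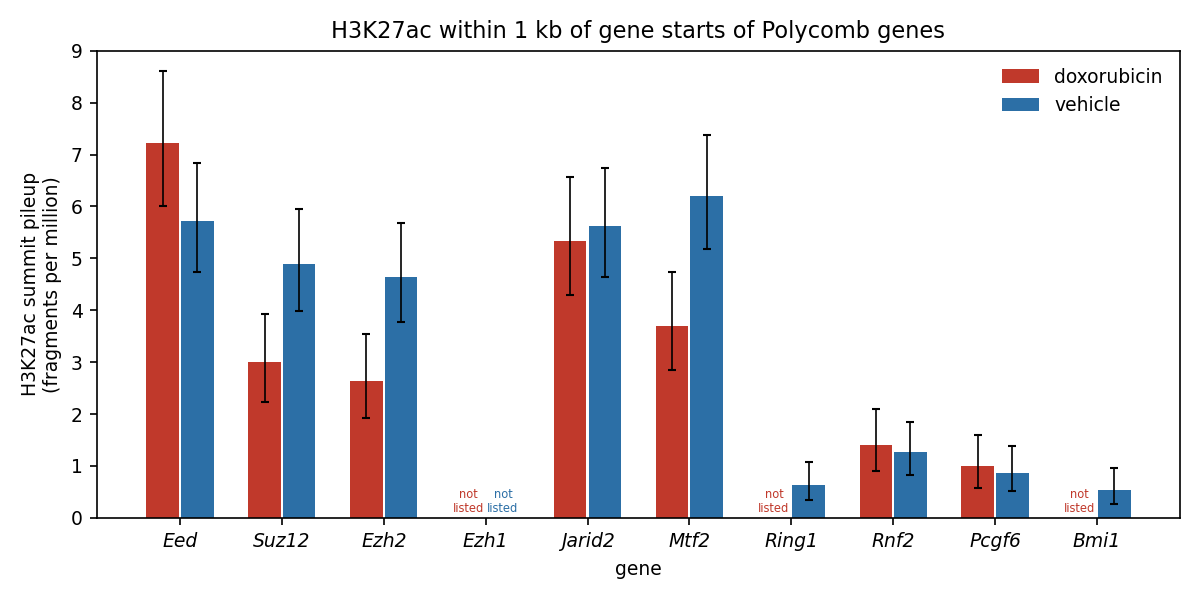
H3K27ac summit pileup (FPM) within 1 kb of the gene starts of the 10 genes, doxorubicin left and vehicle right, with 95% counting intervals as bars. Suz12, Ezh2 and Mtf2 are lower after doxorubicin, at 2.99, 2.64 and 3.70 against 4.89, 4.65 and 6.20, and Eed reads 7.22 against 5.71. At Eed, Ezh2 and Rnf2 the doxorubicin and vehicle values come from different summits.

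Across the whole windows the 10 genes held 127 H3K27ac loci, where a locus is a set of overlapping regions from both lists. Of these, 45 were listed in both treatments, 47 after doxorubicin only (background 40.3%) and 35 after vehicle only (background 18.3%). In the 45, the median ratio was 1.15 and the range 0.424 to 3.52, against a median of 1.12 over all 53618 shared loci. The ratio was at least 1.5 at 10 of the 45 (background 25.9%) and at most 1/1.5 at 10 (background 10.6%). Most loci in 1 treatment only were weak: with a pileup of at least 1 FPM required in either treatment, 5 remained after doxorubicin only and 5 after vehicle only.

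The share of loci in 1 treatment only, and the ratio of shared loci, differed with the place along the gene. The counts below rest mostly on loci under 1 FPM. Of the doxorubicin-only loci past the end, only that at Mtf2 (1.06) reached it. Of the vehicle-only loci upstream, only those at Ezh1 (1.02) and Rnf2 (1.26) did. Jarid2 alone held 27 of the 46 loci on the end side, 8 of them vehicle only. Upstream of the start, 2 of 20 loci were listed after doxorubicin only (background 31.6%) and 10 after vehicle only (background 18.2%). Within the gene on the side nearer the start, 12 of 42 were doxorubicin only (background 37.4%) and 15 vehicle only (background 16.1%), and on the side nearer the end 19 of 46 were doxorubicin only (background 50.8%) and 9 vehicle only (background 14.1%). Past the end, 14 of 19 were doxorubicin only (background 39.0%) and 1 vehicle only (background 14.6%). The backgrounds count each pair of a protein-coding gene and a locus. They too have the highest vehicle-only share upstream. Their highest doxorubicin-only share is on the end side, whereas that of the 10 genes was past the end. The median ratio of shared loci was 0.686 upstream, 0.951 on the start side, 1.24 on the end side and 1.37 past the end, over 8, 15, 18 and 4 loci. These medians have no background by place, and whether all genes show the same order was not tested. Other genes reach into the windows of Ezh2, Ezh1, Jarid2, Mtf2, Ring1, Pcgf6 and Bmi1, and which gene a locus there belongs to was not tested. The division at the middle of the gene was chosen after the values were seen.

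Jarid2, the longest of the genes, held 51 of the 127 loci: 19 in both treatments, 16 after doxorubicin only and 16 after vehicle only. On its start side 8 of 19 loci were vehicle only, the strongest of them at 1.89 FPM 21.8 kb from the start, and the shared locus 17.2 kb from the start was 0.998 after doxorubicin and 2.13 after vehicle (0.468, 0.251 to 0.836). The start side also held 4 loci after doxorubicin only, at 0.528 to 0.704 FPM, and its 7 shared loci had ratios of 0.468 to 3.39, the highest 48.2 kb from the start, at 1.64 after doxorubicin and 0.484 after vehicle (3.39, 1.60 to 7.83). Another run of vehicle-only loci lay 117.5 to 129.9 kb from the start, with a highest level of 1.74. On the end side the 10 shared loci had ratios of 0.514 to 3.52, with 5 at least 1.5 and 1 at most 1/1.5. The highest, 185.6 kb from the start, was 1.70 after doxorubicin and 0.484 after vehicle (3.52, 1.67 to 8.08). Next came 1.35 and 0.533 at 190.7 kb (2.53, 1.19 to 5.76), while the ratio at 174.0 kb was 0.881 (0.308 to 2.41). One Jarid2 locus, 138.9 kb from the start, was listed in the untagged control at 4.56 FPM and in the input at 2.59. Its H3K27ac was 4.11 after doxorubicin, between the input and the untagged level, and 2.28 after vehicle, below both, and leaving it out gives a median of 1.11 over the shared loci of the 10 genes.

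At Mtf2 the ratios of all shared loci upstream and on the start side were below 1, and those on the end side were above 1. Upstream they were 0.628 (0.422 to 0.923) and 0.744 (0.520 to 1.05), and the third locus was vehicle only. On the start side they were 0.597 and 0.527 at the 2 annotated starts and 0.923 (0.450 to 1.86) 20.3 kb from the first start, and the other 4 loci were vehicle only. On the end side the 5 shared loci had ratios of 1.21 to 2.14, the highest at the p53 site, the only 1 of the 5 with an interval above 1, and the locus 35.4 kb from the start was listed after doxorubicin only at 1.47 FPM. Past the end 3 loci were doxorubicin only, at 0.704 to 1.06 FPM.

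**Figure D4:**
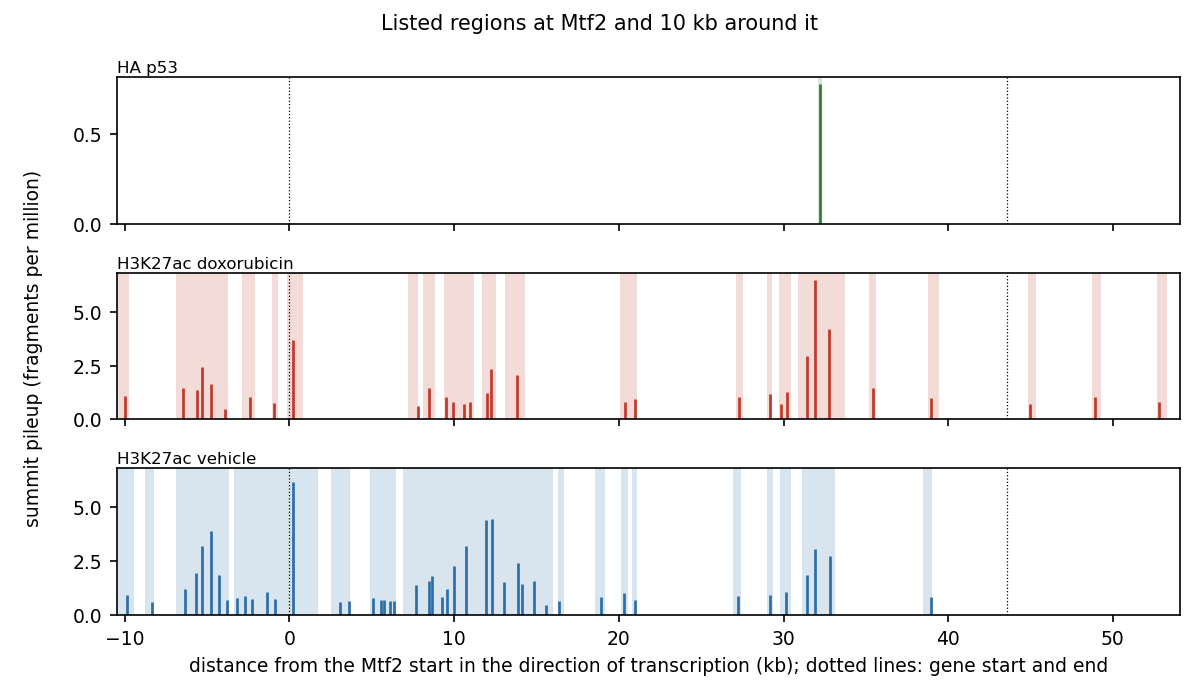
Listed p53 and H3K27ac regions at Mtf2 and 10 kb around it, by distance from the first start in kb, with summit pileup in FPM. Summits near the start are lower after doxorubicin (3.70 against 6.20), and those at the p53 site 32 kb away are higher (6.52 against 3.05).

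At Eed, 7 of 11 loci were listed after doxorubicin only, each at 0.470 to 1.17 FPM, and all within the gene. The locus 4.8 kb from the start went the other way, with 0.822 FPM after doxorubicin and 1.94 after vehicle (0.424, 0.213 to 0.796), the lowest ratio of all 45. Suz12 had 1 stronger doxorubicin-only locus, of 1.76 FPM, 10.8 kb from the start. Upstream of Ezh2, 3 loci were vehicle only, at 0.436 to 0.823 FPM, and its 4 doxorubicin-only loci were within or past the gene at 0.528 to 0.704. Past the end of Rnf2 a shared locus was 1.76 after doxorubicin and 0.920 after vehicle (1.91, 1.04 to 3.60). Ring1, Pcgf6 and Bmi1 had 4, 2 and 2 doxorubicin-only loci and 3, 1 and 1 vehicle-only loci, all under 1 FPM.

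**Figure D5:**
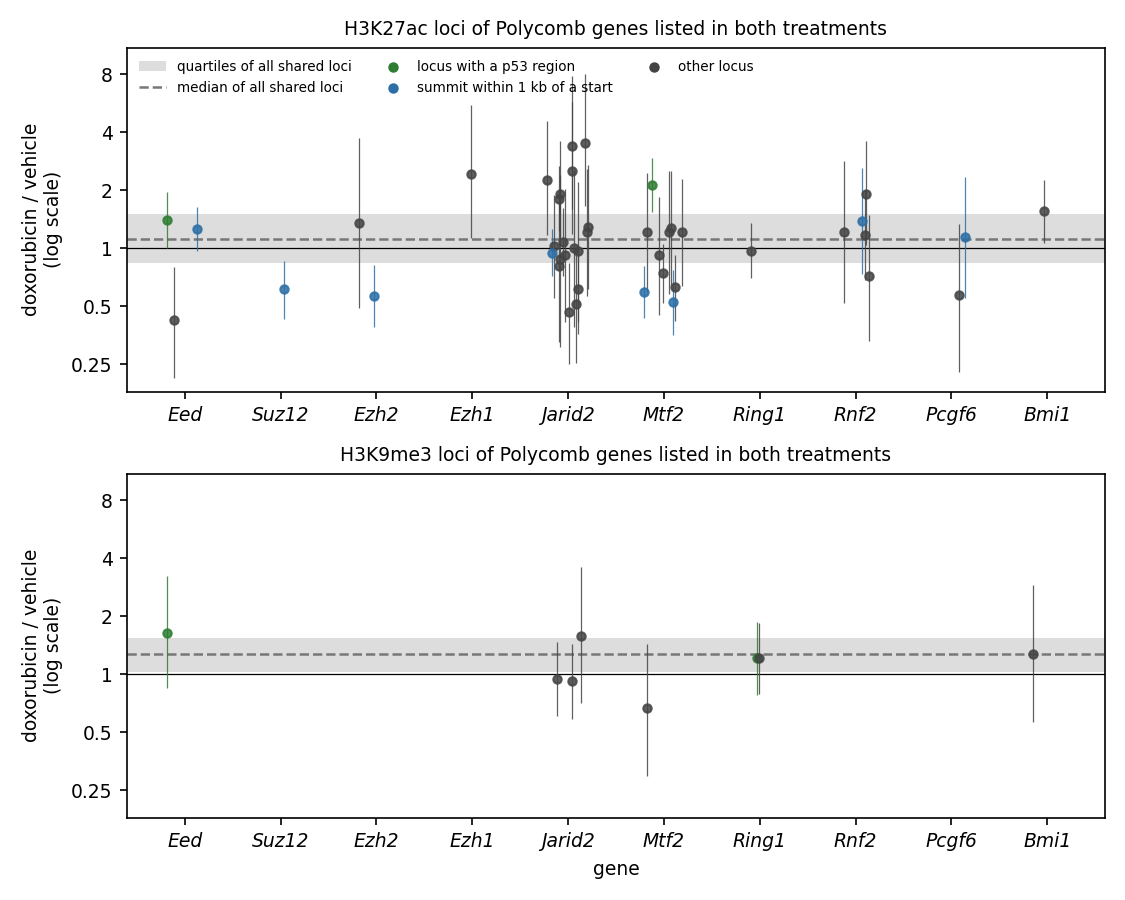
Doxorubicin over vehicle ratio (log scale) of the H3K27ac and H3K9me3 loci listed in both treatments, by gene, with 95% counting intervals as bars. The dashed line and grey band are the median and quartiles of all shared loci, 1.12 (0.842 to 1.52) for H3K27ac and 1.27 (1.03 to 1.54) for H3K9me3.

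H3K9me3 was not listed within 1 kb of any of the 10 gene starts in either treatment, as at most genes: it was listed there in either treatment at 3.33% of protein-coding genes. Loci were listed at 5 of the 10 genes (background 50.3%): Eed, Jarid2, Mtf2, Ring1 and Bmi1. Of 12 loci, 8 were listed in both treatments, 2 after doxorubicin only (background 32.2%) and 2 after vehicle only (background 11.3%). The median ratio of the 8 was 1.21, against 1.27 over all 47376 shared H3K9me3 loci, with 2 of 8 at least 1.5 (background 28.4%) and 1 at most 1/1.5 (background 2.81%). All 8 intervals included 1.

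The strongest H3K9me3 was past the 3′ end of Ring1, the smallest gene. One locus had 3.40 FPM after doxorubicin and 2.81 after vehicle (1.21, 0.790 to 1.85). The next, which overlaps the p53 region, had 3.26 and 2.69 (1.21, 0.785 to 1.88). Its highest summit after doxorubicin, 6410 bp past the end, lies outside the p53 region. At Jarid2, the locus past the 3′ end, which reaches into Dtnbp1, had 2.71 after doxorubicin and 2.94 after vehicle (0.921, 0.587 to 1.44). The Jarid2 locus that the controls also list had 2.85 and 3.00 (0.948, 0.610 to 1.47), between its input and untagged levels. The loci near Mtf2 and Bmi1 were weaker, 0.833 after doxorubicin and 1.25 after vehicle 9.4 kb upstream of Mtf2, and 1.04 and 0.813 past Bmi1. Beside the p53 site, Eed had 2 loci after vehicle only, of 0.813 and 0.750 FPM, 13 and 12 fragments.

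A list of 49 other Polycomb genes was drawn up from textbook knowledge. It holds other subunits of the complexes and also enzymes that oppose them. Of these 49, 16 had a p53 region and 26 had H3K9me3 in the same window, next to the 25.0% and 50.3% of all protein-coding genes given above. The highest p53 level among them was 4.73 FPM, 1574 bp upstream of Aebp2, an accessory subunit of Polycomb repressive complex 2, and the next was 4.00 at Pcgf5, a partner of the RING1 ligases. The others were Rbbp4, Lcor, Pcgf3, Cbx7, Phc2, Scmh1, Scml2, Rybp, Yaf2, Kdm2b, Bcor, L3mbtl2, Auts2 and Fbrsl1, at 0.641 to 3.56 FPM for their strongest regions, all below Eed. At the Aebp2 site H3K27ac was 8.92 after doxorubicin and 4.65 after vehicle (1.92), and at the Cbx7 site 3.64 and 1.16 (3.13). At the Pcgf5 site it was listed after doxorubicin only, at 1.115 FPM. Where both treatments had it, the ratios at these p53 sites ran from 1.21 at Auts2 to 3.71 at Scmh1. The median over all p53 loci was 1.98.

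Within 1 kb of the starts, 27 of the 40 other Polycomb genes with an annotated start had H3K27ac in both treatments (background 45.3%), 3 after doxorubicin only (6.81%) and 4 after vehicle only (4.62%). The median ratio of the 27 was 0.951, against 0.998 over all genes with both. It was at least 1.5 times vehicle at 3 of the 27, below the background of 15.1%: Aebp2 with 5.40 after doxorubicin and 3.20 after vehicle (1.69, 1.22 to 2.35), Pcgf3 with 3.58 and 1.21 (2.96, 1.83 to 4.92) and Phf1 with 1.06 and 0.581 (1.82, 0.829 to 4.14). It was at most 1/1.5 of vehicle at 4 of the 27, near the background of 12.3%, among them Phc1 with 3.64 and 7.22 (0.504, 0.369 to 0.683) and Wdr5 with 2.82 and 5.28 (0.534, 0.372 to 0.756). Within 1 kb of either gene end, Cbx8 had H3K27ac after doxorubicin only, Bcor and E2f6 had it after vehicle only, and H3K9me3 was listed after doxorubicin only at Cbx8, E2f6 and Skp1.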

How the data were processed

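ChIP-seq of 14 libraries in 7 groups of 2 was deposited as 7 peak lists on mm10, each called on 2 pooled libraries with MACS2 2.2.5, per the file headers, after Bowtie2 2.2.6, per the submitters' processing notes. The headers record paired-end mode, a single fragment per position and a q threshold of 0.05. Histone and input lists had no control and a genome-wide background; the untagged and p53 lists were called against the input, p53 with a local background.

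The deposited signal is the pileup at a summit. The deposited −log10 q values and the fold enrichment, a ratio to background, are the peak caller's own. Pileups in the p53 and untagged lists came in whole steps of 0.7332 and 0.6688, and 1 step was taken as 1 fragment.

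Summits of 1 interval were joined into a region with the value of its highest summit. Regions of both treatments overlapping by 1 bp formed a locus. Ratios carry conditional exact 95% intervals. Gene starts come from the RefSeq promoter table, which holds 17492 of 21887 protein-coding genes. The genes and lists were chosen with earlier results of these data known. Named genes are the 10, other Polycomb genes with a p53 region or a mark at a gene end in 1 treatment only, Cdkn1a, Mdm2, and the 5 protein-coding genes nearest Eed in p53 pileup, of which 1 region is not reported here; Phc1, Wdr5, Phf1, Aebp2 and Pcgf3 at starts were chosen after their values were seen. Python 3.11.15, numpy 2.4.6, pandas 2.3.3, scipy 1.17.1 and matplotlib 3.10.9 were used, with the joining and the intervals tested on simulated data. Alternatives covered windows, thresholds, overlap, merging and scaling.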

Additional observations from a re-analysis of the deposited data

How the results depend on the processing

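No paired analysis was possible because libraries 1 and 2 of every group were merged before peaks were called, and for the same reason no library could be left out. The p53 pileup at Eed was 65.3 when the deposited pileup was taken per 1000000 input fragments, since the deposited unit is then not converted to fragments. H3K27ac loci were 47 after doxorubicin only and 35 after vehicle only. They became 14 and 18 when a −log10 q of 5 was required, 20 and 16 when a fold enrichment of 4 was, and 5 and 5 with at least 1 FPM in either treatment (added after seeing the data). The doxorubicin-only count became 28 with equal numbers of top regions, and the vehicle-only count 18 with regions merged within 1000 bp, so the order of the 2 counts depends on the setting. H3K9me3 loci were 2 and 2. They became 1 and 1 with that −log10 q, and 0 and 0 with at least 1 FPM. The doxorubicin-only count became 0 with that fold enrichment, with equal numbers, and with merging, where the vehicle-only count was 1, as in a 5 kb window. The median ratios stayed between 1.01 and 1.19 for H3K27ac and between 0.955 and 1.25 for H3K9me3, within the spread of the loci. Genes with p53 were 2 or 3 of 10 in every setting run. Starts with H3K27ac at most 1/1.5 of vehicle were 2 with a 500 bp window, where Suz12 turned to 1.05, and 3 otherwise.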
